A study of Rattus norvegicus with 2 samples.

Results

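Transcript levels of glutathione transferases in the rat esophagus were compared after gavage with OSU-HDAC42, an inhibitor of histone deacetylases, and after gavage with vehicle alone. The members were 10 genes of 6 enzyme classes, namely Gsta1, Gsta3 and Gsta4 (alpha), Gstm1 and Gstm2 (mu), Gstp1 (pi), Gstt1 and Gstt2 (theta), Gsto1 (omega) and Mgst1 (microsomal). They were found as the probe sets that the platform annotation assigns to exactly 1 gene whose current or older symbol is on that list, which gave 11 of 31042 non-control probe sets and 10 of 14217 measured genes. All animals were male Sprague-Dawley rats, an outbred strain, bought at 5 to 6 weeks of age. The OSU-HDAC42 group received 7 doses of 50 mg/kg by gavage, 350 mg/kg in total, and the vehicle group received vehicle on the same schedule. Tissue was collected on day 15, which was 24 hours past the final gavage. Each group had 1 Affymetrix array of total RNA, and whether RNA of several rats was pooled is not stated in the labels. Without replicates there was no spread between animals to set a difference against, and no difference was tested.

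Glutathione transferases join the tripeptide glutathione to electrophilic compounds such as epoxides, quinones and reactive aldehydes, which makes these compounds more soluble and less reactive. Some members also reduce organic peroxides. The cytosolic enzymes are dimers whose classes differ in sequence and in the substrates they prefer, and the microsomal enzymes are an unrelated family of membrane proteins. In rodents several of these genes are induced by the transcription factor NRF2 (gene Nfe2l2) through antioxidant response elements, and the esophageal epithelium meets many ingested electrophiles.

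The members did not all go in the same direction, although most were lower in the OSU-HDAC42 sample. Gsta3, Gsta1 and Mgst1 were lower in the OSU-HDAC42 sample by 2.53-fold, 1.68-fold and 1.61-fold, Gstp1 was 1.75-fold higher, and each of the other members differed by less than 0.41 on the log2 scale, the typical gap between probe sets measuring 1 gene. Of the 10 members, 7 were lower by more than 0.01 on the log2 scale, 2 were higher and Gsta4 was level, with Gstt2 counted as lower although its probe sets disagreed. All 10 reached the expression floor, an intensity of 49.8 on at least 1 array, which is where the middle non-control probe set lies when the arrays are averaged. The members' log2 differences (OSU-HDAC42 minus vehicle, after intensities under 16 had been raised to 16) had a median of -0.22, beside -0.027 over the 9542 genes above the floor. Of those 9542 genes, 46.8% had a higher and 52.8% a lower value in the OSU-HDAC42 sample. Only Gsta3 was counted as at least 2-fold lower and no member as at least 2-fold higher, while 3.18% of all genes above the floor were 2-fold lower and 1.88% 2-fold higher.

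The gap of 0.41 is a root mean square over 3622 probe set pairs in 2116 genes. It covers only differences between probe sets on the same arrays, whatever their source, and not those between animals. As a second yardstick for each member, the central 95% of the differences of genes within 0.5 log2 units of its mean brightness gives the range seen at that brightness. That range is wide for dim genes and narrow for bright ones. Of the 10 members, 8 lay inside their range and 2, Gstp1 and Mgst1, outside it.

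**Figure D1:**
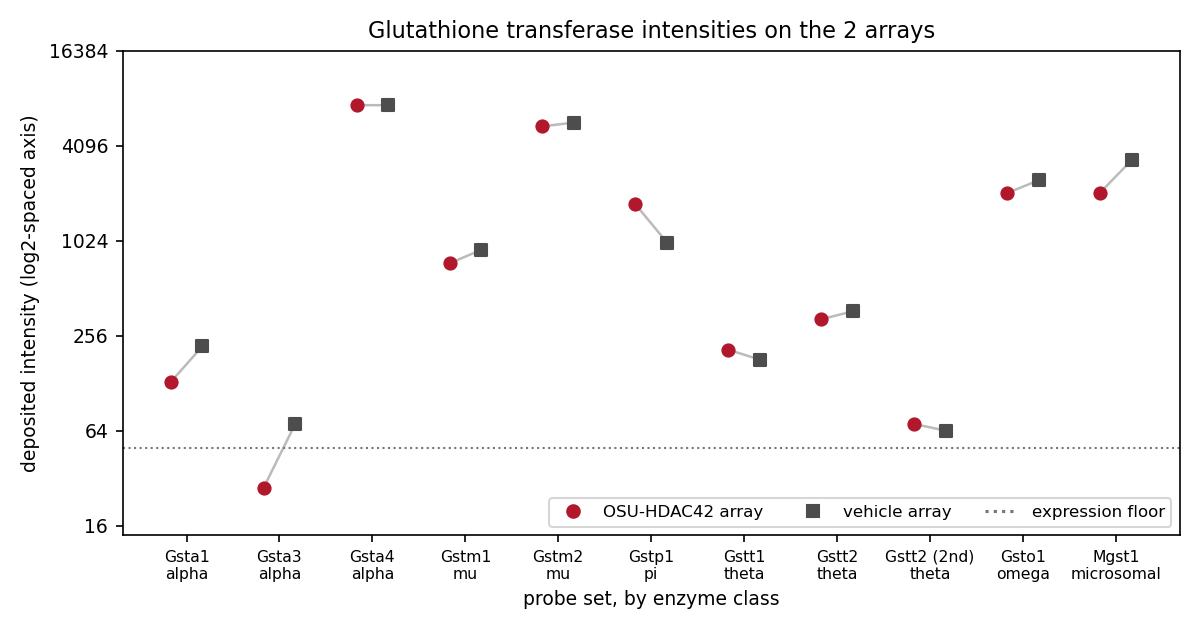
Deposited intensity of each of the 11 member probe sets on a log2-spaced vertical axis, with the OSU-HDAC42 array (circles) left of the vehicle array (squares) and the expression floor of 49.8 as a dotted line. Each symbol is 1 array. Gsta3, Gsta1 and Mgst1 are lower and Gstp1 is higher on the OSU-HDAC42 array, the 2 Gsta4 symbols are level, and Gsta3 is below the floor on the OSU-HDAC42 array only. Heights of different probe sets are not comparable, because probes differ in binding.

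The alpha class holds enzymes with high activity toward organic peroxides and lipid aldehydes. Gsta3 (gene ID 494500), which carries the older names Yc2 and Gsta5 and whose product in rat conjugates the reactive epoxide of aflatoxin, had 27.9 intensity units in the OSU-HDAC42 sample and 70.8 in the vehicle sample. Its log2 difference was -1.34, and 1.68% of the genes above the floor differed by at least as much in either direction. Gsta3 was dim, below the floor in the OSU-HDAC42 sample, and genes of its brightness spanned -1.46 to 1.29, a range that holds its value. Gsta1 (gene ID 24421), known earlier as Yc1 and also listed under the older symbols Gsta3 and Gsta5, stood at 130 in the OSU-HDAC42 sample and 219 in the vehicle sample. Its difference of -0.75 lay within the -1.12 to 0.95 seen among genes of like brightness. Gsta4 (gene ID 300850), whose enzyme is specialised for hydroxynonenal, a product of lipid peroxidation, had 7403 in the OSU-HDAC42 sample and 7406 in the vehicle sample. Its difference of -0.00058 was the smallest of the family, in a brightness range where differences ran from -0.29 to 0.25, and its sign changed when the arrays were centred or quantile normalized. Among the alpha members, Gsta1 and Gsta3 were thus lower and Gsta4 was level. Outside the members, a probe set annotated to 2 alpha genes had 489 in the OSU-HDAC42 sample and 1481 in the vehicle sample (-1.60). Gsta3l1, another alpha gene, had 6984 in the OSU-HDAC42 sample and 8159 in the vehicle sample (-0.22). Each alpha member had a single probe set. Alpha genes resemble each other closely, and how far a probe set also caught transcripts of another alpha gene was not tested.

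Gsta1 and Gsta3 are close neighbours on chromosome 9 of the GRCr8 rat assembly, whereas Gsta4 lies on chromosome 8. The 250 bases before the annotated starts of Gsta1 and Gsta3 are shown, 5′ to 3′ on the gene's strand, from RefSeq's GRCr8 annotation. Both genes were lower, each inside the range of genes of like brightness, and a link to these sequences was not tested. Capitals mark matches, on either strand, to any of 4 motifs: TGACNNNGC, the core of the antioxidant response element; TGACTCA, the AP-1 site, which can overlap that core; GGGCGG, the GC box; and TATAAA, the TATA box. The Gsta1 window is chr9:31216533-31216782 (minus strand) and the Gsta3 window is chr9:31154739-31154988 (plus strand), the first of 2 annotated Gsta3 windows.
Gsta1: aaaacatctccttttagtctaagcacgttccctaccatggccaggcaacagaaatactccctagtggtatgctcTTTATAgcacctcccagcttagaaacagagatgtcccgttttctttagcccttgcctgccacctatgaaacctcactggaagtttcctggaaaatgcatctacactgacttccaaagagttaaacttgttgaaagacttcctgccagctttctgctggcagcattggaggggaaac
Gsta3: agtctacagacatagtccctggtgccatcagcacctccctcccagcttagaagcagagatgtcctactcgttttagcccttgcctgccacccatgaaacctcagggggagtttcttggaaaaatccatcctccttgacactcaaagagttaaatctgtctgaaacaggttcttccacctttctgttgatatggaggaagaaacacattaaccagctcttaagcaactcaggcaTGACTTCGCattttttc
The antioxidant response element core was found in both genes at almost the same flanking sequence but at different distances from the annotated start, beginning 17 bases before the start in Gsta3 and 30 bases after it in Gsta1. The sites are shown with their flanks, at chr9:31216487-31216515 (minus strand) for Gsta1 and chr9:31154959-31154987 (plus strand) for Gsta3, with the core in capitals.
Gsta1 site: agcaactcaggcaTGACTTTGCatttttc
Gsta3 site: agcaactcaggcaTGACTTCGCatttttt
Of these 29 bases, 27 are the same in Gsta1 and Gsta3. Among them, the fixed letters of the core, TGAC and GC, match by selection. The match is a description of the letters and does not show that a factor binds there.

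The pi class enzyme Gstp1 (gene ID 24426), long used in rat liver as a marker of early tumour foci, was the only member higher by more than the gap between probe sets of 1 gene. It stood at 1743 in the OSU-HDAC42 sample and 998 in the vehicle sample, a log2 difference of 0.80. Genes of its brightness spanned -0.63 to 0.74, and 9.29% of all genes above the floor differed by at least as much in either direction. The difference was short of 2-fold, and Gstp1 had 1 probe set, so it has no second measurement on these arrays.

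The Gstp1 promoter, chr1:210769706-210769955 (minus strand), is shown because Gstp1 was the member furthest above its vehicle value. It holds a match to the same degenerate response element pattern. The match begins 61 bases before the annotated start, overlaps an AP-1 site that begins at the same base, and is followed by a GC box that begins 47 bases before the start.
Gstp1: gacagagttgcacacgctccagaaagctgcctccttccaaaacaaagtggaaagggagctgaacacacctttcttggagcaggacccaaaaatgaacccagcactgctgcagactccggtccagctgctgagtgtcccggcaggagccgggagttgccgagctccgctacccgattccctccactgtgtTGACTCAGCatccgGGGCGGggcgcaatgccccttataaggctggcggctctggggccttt
The Gstp1 site with its flanks, chr1:210769751-210769779 (minus strand), compares with those of Gsta1 and Gsta3 above.
Gstp1 site: ccctccactgtgtTGACTCAGCatccggg
Over 29 bases, 13 are the same in Gstp1 as in Gsta1, and 13 as in Gsta3. These counts include the letters TGAC and GC, which match because the sites were chosen by the core. Windows of 300 bases (250 before and 50 after the start) were given for 8 of the 10 members, 9 windows in all. No window was given for Gstt1 or Gstt2. The response element core was in 3 of these 9 windows, of Gsta1, Gsta3 and Gstp1, beside 12.1% of all 33469 promoter windows. The AP-1 site was in 2, of Gstp1 and Gsto1 (4.63% of all windows), the GC box in 4, of Gsta4, Gsto1, Gstp1 and Mgst1 (33.1%), and the TATA box pattern in 2, of Gsta1 and Gstm1 (14.2%). The Gsta1 match to TATAAA is on the opposite strand, 176 bases before the start. That of Gstm1 is on the gene's strand, 29 bases before the start.

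Mgst1 (gene ID 171341), the membrane-bound transferase of the endoplasmic reticulum and outer mitochondrial membrane, which also reduces lipid hydroperoxides, was lower. Its intensity was 2067 in the OSU-HDAC42 sample and 3324 in the vehicle sample, a log2 difference of -0.69. Among genes of its brightness the central 95% of differences ran from -0.60 to 0.55, so Mgst1 lay just outside, although 13.4% of genes of any brightness differed by at least as much. The 250 bases before the Mgst1 start, chr4:172760680-172760929 (plus strand), are also shown. They hold a GC box, beginning 132 bases before the start, as the Gstp1 window does nearer its start. They hold no match to the response element core, which most member windows also lack.
Mgst1: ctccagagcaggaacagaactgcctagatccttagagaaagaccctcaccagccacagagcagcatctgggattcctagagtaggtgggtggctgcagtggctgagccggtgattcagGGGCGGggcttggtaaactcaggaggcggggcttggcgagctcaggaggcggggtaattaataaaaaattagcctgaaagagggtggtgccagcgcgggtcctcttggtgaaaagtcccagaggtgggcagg
The other microsomal forms were closer to level. Mgst2, which can also make leukotriene C, had 1391 in the OSU-HDAC42 sample and 1423 in the vehicle sample (-0.033), and Mgst3 had 474 against 580 (-0.29).

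**Figure D2:**
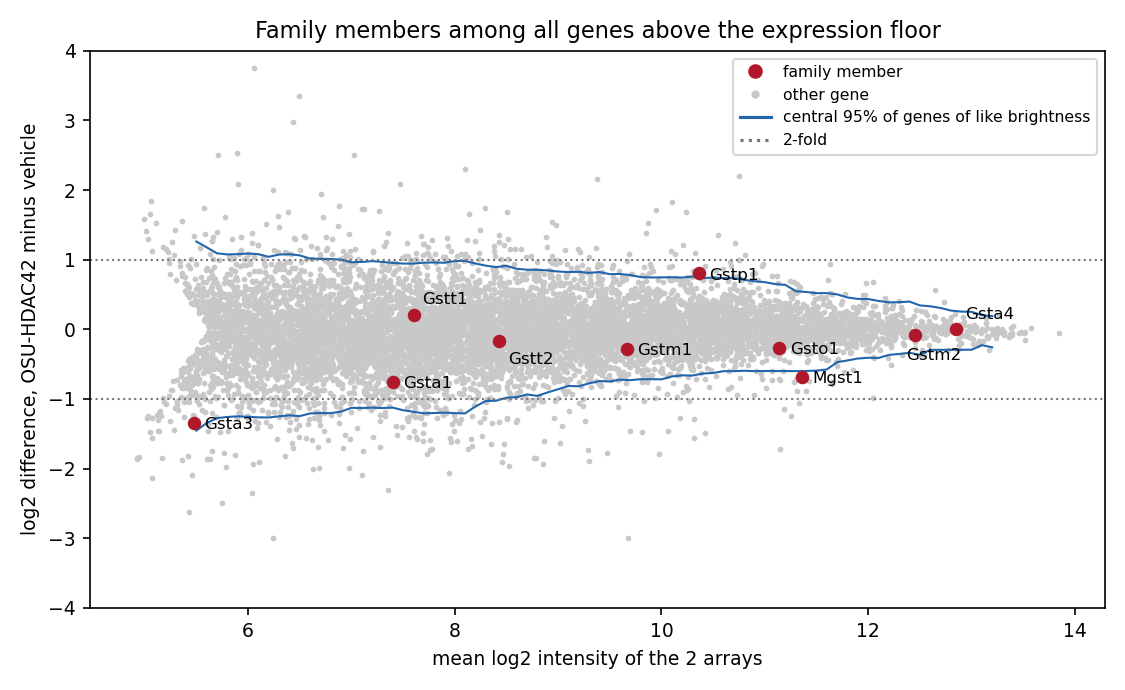
Log2 difference (OSU-HDAC42 minus vehicle) against the mean log2 intensity of the 2 arrays for the 9542 genes above the expression floor, with the 10 family members in red, lines at the central 95% of genes of like brightness and dotted lines at 2-fold. Gstp1 at 0.80 and Mgst1 at -0.69 lie just outside the lines, and Gsta3 at -1.34 is the only member past 2-fold, at the dim end where differences spread most.

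The mu class, which acts on epoxides and quinones, differed little. Gstm1 (gene ID 24423) had an intensity of 737 in the OSU-HDAC42 sample and 896 in the vehicle sample, a log2 difference of -0.28. Gstm2 (gene ID 24424) had 5435 against 5748, a difference of -0.081. Both lay well inside the ranges of genes of like brightness, -0.72 to 0.79 for Gstm1 and -0.36 to 0.39 for Gstm2. Of the other mu genes, all from the same cluster on chromosome 2, Gstm5 differed by -0.48, Gstm3 by -0.37, Gstm7 by -0.18 and Gstm4 by -0.032. All 6 mu genes above the floor were thus lower as deposited, the largest by 1.39-fold, although with quantile normalization 5 were lower and 1 higher. Transcripts of this class are also similar in sequence, and the 6 values need not be separate observations.

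In the theta class, whose enzymes act on small halogenated compounds and sulfate esters, the differences were small. Gstt1 (gene ID 25260) stood at 209 in the OSU-HDAC42 sample and 181 in the vehicle sample, a difference of 0.21. Gstt2 (gene ID 29487) was the only member with 2 probe sets, and these disagreed in sign. The brighter gave 326 against 366 (-0.17) and the dimmer 70.7 against 64.1 (0.14), so no direction can be given for Gstt2. Gstt3 differed by -0.11. Gsto1 (gene ID 114846), the omega-class enzyme that reduces dehydroascorbate and methylated arsenic, had 2053 in the OSU-HDAC42 sample and 2478 in the vehicle sample. Its difference of -0.27 was inside the range of -0.60 to 0.68 at its brightness. The kappa-class enzyme Gstk1, of mitochondria and peroxisomes, differed by -0.066. The omega-class gene Gsto2 was below the floor on both arrays (OSU-HDAC42 23.6, vehicle 17.3), as was the zeta-class gene Gstz1 (OSU-HDAC42 35.1, vehicle 47.1).

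**Figure D3:**
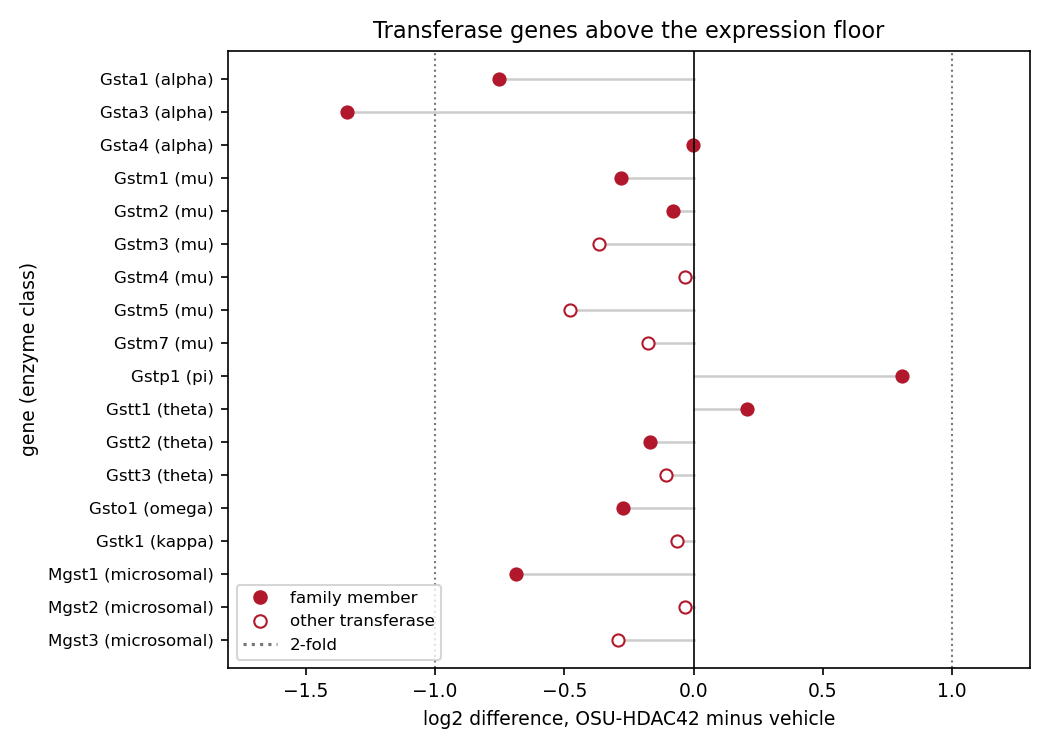
Log2 difference (OSU-HDAC42 minus vehicle) of the 18 transferase genes above the expression floor among the members and the list of other transferases, ordered by class from alpha at the top to microsomal at the bottom, with family members filled, other transferases open and dotted lines at 2-fold. Each point is 1 gene on 1 array per group. The alpha genes run from -1.34 to -0.00058, the mu genes from -0.48 to -0.032, the microsomal genes from -0.69 to -0.033, and Gstp1 stands on the other side at 0.80.

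Genes around the transferases were read from 7 further lists, some of which share genes. The list of other transferases and relatives had 9 of 16 measured genes above the floor, 1 higher and 8 lower, with a median of -0.11 (-0.086 over all measured genes). Its only 2-fold gene was Ptges, a relative of Mgst1 that makes prostaglandin E, at 257 in the OSU-HDAC42 sample and 126 in the vehicle sample (1.03). The dimmer Ptges probe set went the same way, at 83.9 against 51.6 (0.70).

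For the supply of glutathione, 14 of 17 measured genes of synthesis, cystine uptake and recycling reached the floor, 3 of them higher, 11 lower and none 2-fold, with a median of -0.19 (-0.12 over all measured genes). The catalytic and modifier subunits of the rate-limiting ligase, Gclc and Gclm, differed by -0.29 and -0.11, and Slc7a11, the cystine importer, by -0.38. Oplah, which opens the ring of oxoproline, differed by -0.62 and Ggct, which releases oxoproline from gamma-glutamyl compounds, by 0.41, and the peptidase gene Ggt5 by -0.33. For Ggct and Ggt5 the dimmer probe set went the other way (-0.20 and 0.31).

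Enzymes that export and break down the conjugates had 10 of 13 measured genes above the floor, 2 higher and 8 lower and none 2-fold. Their median was -0.093 over all measured genes and -0.33 over those above the floor. Kyat1, a cysteine-conjugate beta-lyase, had 130 in the OSU-HDAC42 sample and 213 in the vehicle sample (-0.71). Acy3, a deacylase of mercapturic acids, had 28.4 against 52.0 (-0.87), the transporter Abcc5 33.5 against 54.6 (-0.70) and the peptidase Anpep 65.5 against 95.2 (-0.54). Acy3, Abcc5 and Anpep were dim, where differences spread most. Abcc1, the main exporter of glutathione conjugates in many cells, differed by 0.068.

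Enzymes of peroxide and superoxide metabolism, among them superoxide dismutases, showed no common direction, 10 of the 17 expressed genes being higher and 7 lower (median 0.055, or 0.046 over all 18 measured, none 2-fold). Gpx4 and Gpx1, both glutathione peroxidases, differed by -0.51 and -0.46 and Gpx7 by -0.44, although the dimmer Gpx4 probe set went the other way (0.31). Prdx4, a peroxiredoxin of the endoplasmic reticulum, differed by 0.42.

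Target genes of NRF2 outside the transferases were likewise mixed. Of 22 measured, 21 reached the floor, and among these 8 had higher and 13 lower values, with a median of -0.15 (-0.13 over all measured genes) and none 2-fold. The quinone reductase Nqo1, a standard readout of NRF2, stood at 2358 in the OSU-HDAC42 sample and 2610 in the vehicle sample (-0.15). The epoxide hydrolase Ephx1 differed by -0.62 and the heme oxygenase Hmox1 by -0.56, while the carbonyl reductase Cbr1 differed by 0.54 and the aldo-keto reductase Akr1b8 by 0.47. The regulators above the floor split into 5 higher and 5 lower, with a median of -0.11 that turned to 0.032 over all 17 measured. Nfe2l2 itself had 1280 in the OSU-HDAC42 sample and 1255 in the vehicle sample (0.029), and its inhibitor Keap1 differed by -0.28. Of NRF2's small MAF partners, Mafg differed by -0.55, Maff by -0.33 and Mafk by 0.49, and the AP-1 component Fos by 0.50.

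Other enzymes of xenobiotic and aldehyde metabolism had 14 of 19 measured genes above the floor, 5 higher and 9 lower, with a median of -0.23 (-0.058 over all measured genes). The arylamine acetyltransferase Nat1 was its only 2-fold gene. Nat1 stood at 40.3 in the OSU-HDAC42 sample and 81.3 in the vehicle sample (-1.01), and its other probe set at 25.6 against 63.1 (-1.30). Both probe sets were dim, below the floor in the OSU-HDAC42 sample, where differences spread most.

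**Figure D4:**
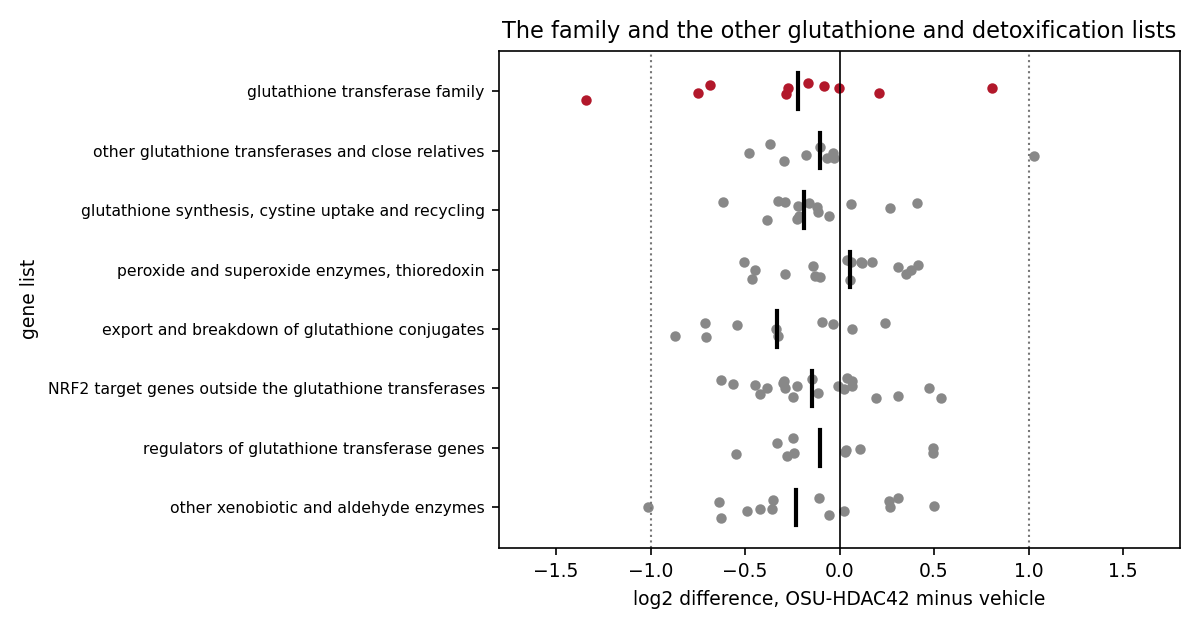
Log2 difference (OSU-HDAC42 minus vehicle) of genes above the expression floor in the transferase family (red, top) and 7 further lists (grey), 1 point per gene with random vertical spread, a black bar at each list's median and dotted lines at 2-fold. The medians over these genes run from -0.33 for export and breakdown of conjugates to 0.055 for peroxide and superoxide enzymes, and the family has the widest spread, from -1.34 to 0.80.

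The arrays measured whole tissue, in which fewer cells of a type and less RNA per cell cannot be told apart, and markers of several cell types differed between the samples. All 12 skeletal muscle markers were lower in the OSU-HDAC42 sample, 9 of them at least 2-fold, with summed intensities of 12318 against 24953 in the vehicle sample. All 8 smooth muscle markers were higher (11007 against 6815, 2 of them 2-fold), as were all 6 fibroblast markers (20350 against 16264, none 2-fold). Macrophage markers were higher in 5 of 6 cases (1291 against 883, 1 of them 2-fold). The epithelium to which the tissue label points was marked on both arrays: basal keratinocyte markers summed to 29956 in the OSU-HDAC42 sample and 30968 in the vehicle sample (1 of 8 higher, 7 lower, 1 of them 2-fold), and suprabasal and cornified markers to 67960 in the OSU-HDAC42 sample and 70579 in the vehicle sample (4 of 10 higher, 1 of them 2-fold, and 6 lower). The 2-fold epithelial genes were the hemidesmosome integrin Itgb4, at 171 in the OSU-HDAC42 sample and 416 in the vehicle sample (-1.28), and the suprabasal keratin Krt10, at 345 against 168 (1.04). Endothelial markers summed to 2470 in the OSU-HDAC42 sample and 2328 in the vehicle sample, with 2 of 6 higher and 4 lower. Among markers of red blood cells, Hbb stood at 324 in the OSU-HDAC42 sample and 848 in the vehicle sample, and Alas2 was below the floor on both. Of the 13 marker lists, 5 had no gene above the floor on either array, namely hepatocyte (summed intensity 123 in the OSU-HDAC42 sample against 133 in the vehicle sample), airway (80.1 against 68.0), glandular stomach (68.8 against 66.7), adipocyte (60.4 against 64.5) and Schwann cell and neuron (40.9 against 36.0). The part of the skeletal muscle, smooth muscle, fibroblast and macrophage markers in the transferase differences was not tested.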

How the data were processed

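Esophageal RNA of 2 groups was hybridised, 1 array each. The deposited table holds intensities of probe sets on a linear scale, as read from its values. The submitters' processing notes list GCOS and RMA, without a role for either. The between-array scaling is not given in the sources used here, and one that equalised the arrays would hide any shared shift.

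Intensities below 16 were set to 16 before log2, which affected no member, and nothing was normalized further. Of 31042 non-control probe sets, 20826 have 1 gene symbol in the platform annotation, 436 several and 9780 none, and only the first were used, with symbols updated by gene ID from RefSeq's GRCr8 table. A gene's probe set was the one brightest on average. A gene was 2-fold where its log2 difference reached 1 in size and its brighter array the floor. With 1 array per group there was no test, and the number of arrays limits the precision. Python 3.11.15 and pandas 2.3.3 were used, and the counting was tested on simulated data.

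All members were named. Of each further list, the 2-fold genes were named, or else up to 4 genes above the floor with the largest differences. Gclc, Gclm, Abcc1, Nqo1, Nfe2l2, Keap1, Itgb4, Krt10, Hbb, Alas2 and the other transferases assigned to a class were named with values known. Because 2 arrays hold no pattern beyond the difference, no gene was named for likeness to a member. Members and lists were chosen with earlier results of these data known.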

Additional observations from a re-analysis of the deposited data

How the results depend on the processing

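Each member's difference was recomputed under 7 alternatives of scaling, raised values and probe set choice, and all 70 values stayed within the 0.41 spread between probe sets of the main value. Many of these values could not move, so their number says little. Probe set choice cannot alter the 9 members with 1 probe set. Leaving low values unraised changed no member, and raising those under 32 changed only Gsta3. Gsta3 ran from -1.36 to -1.15, Gsta1 from -0.75 to -0.72, Mgst1 from -0.70 to -0.66 and Gstp1 from 0.76 to 0.83. Gstt2 came to -0.013 when its 2 probe sets were averaged. Among list medians, 5 values moved by more than the probe set spread divided by the square root of the list's size. The median of other xenobiotic and aldehyde enzymes, -0.058 over all measured genes, was -0.32 with no values raised and -0.23 over genes above the floor. Over genes above the floor, the median for export and breakdown of conjugates was -0.33, against -0.093 over all measured genes, and that of regulators -0.11, against 0.032. The median for glutathione synthesis was -0.0076 with probe sets averaged, against -0.12. These shifts follow from the settings. Leaving values unraised changes only genes with an intensity under 16, the floor only leaves genes out, and averaging changes only genes with several probe sets. Genes under 16 on both arrays count as exactly 0 in the main setting. There were 3 of them among xenobiotic and aldehyde enzymes, 2 for conjugates and 1 among regulators. By construction, a 1.5-fold threshold gave 1 member higher and 3 lower (all genes 725 and 1040), a 3-fold threshold 0 members lower (all genes 31 and 58), and a floor at the 75th percentile of intensities 0 members lower (all genes 73 and 116), where the main setting gave 0 higher and 1 lower (all genes 179 and 303). No paired analysis was possible because only 1 array stood in each group. Low intensity limits Gsta3 most.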

Other observations

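The probe set annotated to 2 alpha-class transferase genes, and so outside the family's rule, had a larger difference than any member. Its intensity was 489 in the OSU-HDAC42 sample and 1481 in the vehicle sample, 3.03-fold lower (log2 difference -1.60). It cannot be said which of its 2 genes the probe set measured. The alpha-class gene Gsta3l1, which stands on none of the lists and is named with its value known, had 6984 in the OSU-HDAC42 sample and 8159 in the vehicle sample (-0.22). Gstp3, a pi-class neighbour of Gstp1, and the mu-class gene Gstm6l were under 16 on both arrays, so no difference could be measured for either.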
